A study of Mus musculus with 3 samples.

Results

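The epithelium of the thymic medulla was set against the epithelium of the skin in C57BL/6 mice. Medullary thymic epithelial cells (mTEC) were taken from 14 mice aged 7 days, whose thymi were pooled, and were sorted as CD45-, EpCAM+ and Ly51- cells that bind the lectin UEA1. Skin epithelial cells (skinEC) came from the pooled epidermis of the trunk and back of 7 newborn mice and were sorted as EpCAM+ and CD11c- cells, with no gate on CD45. The labels name no transgene and no treatment. Each population gave 1 RNA sequencing library, so there is no spread between replicates and no test, and every difference is a size between 2 libraries. Tissue, age, the way the cells were freed and the sort all differ between the sides, and their parts cannot be told apart.

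Expression was read as RPKM, reads scaled by the length of the gene model in kilobases and by the mapped reads of the library, which allows levels of different genes to be set side by side. Members of the comparison were the genes at 1 RPKM or more in either library, 16663 of 22609 gene symbols. Their difference is log2((RPKM + 1)/(RPKM + 1)), mTEC over skinEC, a scale that understates the difference of low genes. A gene counts as higher on a side from a log2 ratio of 2, which is 4-fold. Pairs of values are given in the order mTEC against skinEC throughout. The steps between low values place the depth near 55500000 reads in mTEC and 55900000 in skinEC, at which 3 reads on a gene of 1 kb are 0.0541 and 0.0537 RPKM, for counting error only. The summed RPKM was 474028 in mTEC and 595006 in skinEC.

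The labels were read against marker genes first. In skinEC the keratinocyte genes Krt5 (15010.4 RPKM), Krt14 (10673 RPKM), Krt1 (1940.0 RPKM), Krt10 (1998 RPKM) and Trp63 (292 RPKM) were abundant, and the late differentiation genes Lor (30.3 RPKM) and Ivl (8.50 RPKM) were present at lower levels. In mTEC the medullary genes Aire (1129 RPKM), Fezf2 (231 RPKM), Cd80 (60.6 RPKM) and H2-Aa (5902 RPKM) were all present, with Krt5 at 475 and Krt14 at 229 RPKM. Epcam, the gene behind the antigen gated in both sorts, was at 398 against 142 RPKM. Ptprc, which encodes CD45, was at 8.01 against 0.0853 RPKM, and Itgax, which encodes CD11c, at 1.07 against 0.249 RPKM. Enpep, which encodes Ly51, was at 11.6 against 0.0553 RPKM, with 44.97 RPKM in the library of cortical thymic epithelial cells (cTEC). The positive markers of both labels were thus present in the library that carries the label. Ptprc and Enpep, whose antigens were gated against in the mTEC sort, were also detected in mTEC. The purity of the sort was not tested.

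mTEC show self antigens to developing T cells. They carry MHC class II molecules, which elsewhere belong mainly to professional antigen-presenting cells, and they transcribe genes of many other organs under the regulators Aire and Fezf2. The epidermis is a stratified epithelium in which basal cells bound to a basement membrane divide, then leave it, switch keratins and build the cornified barrier. Both are epithelia that depend on the transcription factor p63, and the comparison sets their shared and separate programmes side by side.

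Promoter windows of 2 gene groups are shown because their members stood together at opposite ends of the comparison. The windows are RefSeq sequence on GRCm38.p6, from 250 bases before to 50 bases after the annotated start, 5′ to 3′ on the strand of the gene. They are used as sequence only, since the deposited values belong to another build. The first group is MHC class II, higher in mTEC. Class II promoters are known for an X box read by RFX factors and a Y box read by NF-Y, to which the coactivator encoded by Ciita is recruited. Capitals mark GCAAC, a core of the X box, and TGATTGG, a core of the Y box, on either strand. TGATTGG contains ATTGG, the reverse complement of the NF-Y core CCAAT. H2-Aa lies at chr17:34287774-34288073 on the minus strand, H2-Eb1 at chr17:34305617-34305916 and H2-DMb2 at chr17:34144999-34145298, both on the plus strand.
H2-Aa: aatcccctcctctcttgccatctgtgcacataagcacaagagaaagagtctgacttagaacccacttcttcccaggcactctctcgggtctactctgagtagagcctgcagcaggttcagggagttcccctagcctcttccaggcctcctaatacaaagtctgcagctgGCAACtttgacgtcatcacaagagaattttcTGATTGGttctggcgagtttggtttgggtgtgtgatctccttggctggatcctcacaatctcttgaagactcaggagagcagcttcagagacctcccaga
H2-Eb1: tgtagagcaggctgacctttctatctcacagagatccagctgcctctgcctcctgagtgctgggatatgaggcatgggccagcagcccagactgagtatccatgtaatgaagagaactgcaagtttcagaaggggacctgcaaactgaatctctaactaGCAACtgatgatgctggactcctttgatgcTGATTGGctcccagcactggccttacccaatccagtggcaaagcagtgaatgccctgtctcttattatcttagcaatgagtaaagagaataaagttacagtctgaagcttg
H2-DMb2: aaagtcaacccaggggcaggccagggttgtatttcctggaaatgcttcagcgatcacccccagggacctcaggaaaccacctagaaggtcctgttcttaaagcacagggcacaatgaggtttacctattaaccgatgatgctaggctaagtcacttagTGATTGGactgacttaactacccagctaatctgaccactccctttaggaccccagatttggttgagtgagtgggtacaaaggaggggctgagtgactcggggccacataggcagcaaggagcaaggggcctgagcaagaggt

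The H2-Aa window held GCAAC from position -81 and TGATTGG from position -50, counted from the start, and the H2-Eb1 window held them from -91 and -61. The H2-DMb2 window held TGATTGG from -92 and no GCAAC. Over the 22862 genes with a single window, TGATTGG was found in 8.47% and GCAAC in 35.4%, so the shorter motif alone is common. Such a match describes letters and shows no binding.

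The second group is the cell cycle, higher in skinEC. Promoters of late cell cycle genes are known for CCAAT boxes and for the CHR element TTTGAA. Capitals mark CCAAT and TTTGAA on either strand. Ccnb2, a mitotic cyclin gene, lies at chr9:70421505-70421804 on the minus strand, Cdc20, which activates the anaphase ubiquitin ligase, at chr4:118437294-118437593 on the minus strand, and Plk1, a mitotic kinase gene, at chr7:122159185-122159484 on the plus strand.
Ccnb2: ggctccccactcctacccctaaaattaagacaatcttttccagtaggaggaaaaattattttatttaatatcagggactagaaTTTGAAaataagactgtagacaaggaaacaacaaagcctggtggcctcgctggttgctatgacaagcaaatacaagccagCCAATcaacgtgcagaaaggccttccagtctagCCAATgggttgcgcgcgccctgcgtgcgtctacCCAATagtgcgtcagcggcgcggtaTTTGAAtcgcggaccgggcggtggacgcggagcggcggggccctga
Cdc20: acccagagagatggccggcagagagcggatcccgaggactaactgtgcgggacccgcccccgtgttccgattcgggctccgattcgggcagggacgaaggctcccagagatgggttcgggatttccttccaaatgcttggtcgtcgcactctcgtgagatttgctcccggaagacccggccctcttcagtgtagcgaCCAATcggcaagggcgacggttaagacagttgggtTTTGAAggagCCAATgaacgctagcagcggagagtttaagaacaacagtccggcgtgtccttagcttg
Plk1: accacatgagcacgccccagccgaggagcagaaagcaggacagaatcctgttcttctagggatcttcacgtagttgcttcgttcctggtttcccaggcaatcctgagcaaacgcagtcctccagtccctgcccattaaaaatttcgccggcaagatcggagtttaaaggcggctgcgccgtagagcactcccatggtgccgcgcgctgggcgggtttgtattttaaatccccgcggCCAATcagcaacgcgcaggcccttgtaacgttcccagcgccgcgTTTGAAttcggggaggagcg

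Ccnb2 held CCAAT from -87, -54 and -21, Cdc20 from -53 and -8 and Plk1 from -14. TTTGAA stood beside the start in Cdc20, from -18, and after it in Ccnb2 and Plk1, from 4 and 30, and Ccnb2 held another from -167. Over all single windows CCAAT was found in 38.2% and TTTGAA in 18.5%. A comparison of promoter composition between all genes higher on each side was void, because 12768 of 16242 genes (78.6%) had a window.

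Far more genes were higher in mTEC than in skinEC. Higher in mTEC were 2834 genes (17.0% of those compared) and higher in skinEC 708 (4.25%), with 8115 genes (48.7%) within 2-fold and a median log2 ratio of 0.15 over all genes. The list counts below are to be read beside these 2 shares. The shares are over compared genes only, whereas tabulated list members include some below the filter. The genes higher in mTEC had a median of 11.9 RPKM in mTEC against 0.105 RPKM in skinEC, 1573 of them (55.5%) reached 10 RPKM in mTEC, and 749 of them are listed at 0 in skinEC. The genes higher in skinEC had a median of 46.0 RPKM in skinEC and 5.02 RPKM in mTEC, so most of them were detected in mTEC as well. Only 4 are listed at 0 in mTEC, all of them small RNA entries. Of the genes higher in mTEC 204 (7.20%) reached 100 RPKM in mTEC, and of those higher in skinEC 178 (25.1%) reached it in skinEC. Just past the threshold lay Spns3 (3.36 against 0.0886 RPKM) toward mTEC and Ttk (3.80 against 18.2 RPKM) toward skinEC. Just short of it lay Pemt (13.9 against 2.73 RPKM) and Xylt2 (3.57 against 17.3 RPKM).

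**Figure D1:**
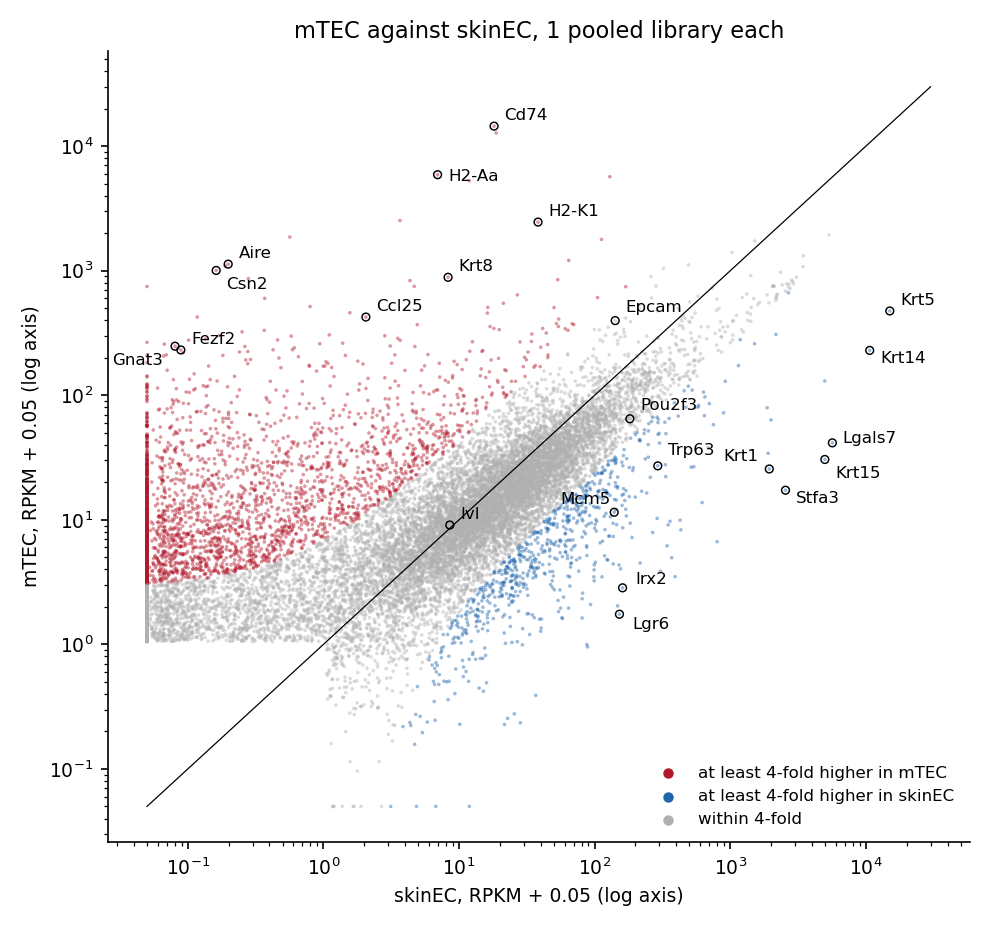
RPKM in skinEC (x axis) against RPKM in mTEC (y axis) for 16663 genes, both on log axes after adding 0.05, with the diagonal drawn and genes at least 4-fold higher in mTEC in red (2834) or in skinEC in blue (708). The red cloud reaches down the left edge, where genes are listed at 0 in skinEC, while keratin genes such as Krt5 and Krt14 stand at the far right.

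The counts depend on how low genes enter. When only the 11804 genes at 1 RPKM or more in both libraries were compared, 603 were higher in mTEC and 640 in skinEC, and mTEC then held 48.5% of the differing genes in place of 80.0%. Scaling both libraries to the same sum moved the median log2 ratio of all genes from 0.15 to 0.46, and with it 3248 and 501 genes were apart. List medians within that distance of 0 therefore carry no direction of their own.

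The library of mTEC held more genes at low levels and fewer at high ones. At 1 RPKM or more there were 16375 genes against 12092 in skinEC, and 4571 genes did so in mTEC and not in skinEC, against 288 the other way. At 10 RPKM the counts were 8251 and 7662, and at 100 RPKM the order was turned, with 696 against 996. At 1000 RPKM the libraries held 20 and 62 genes, while at 5000 RPKM they held 5 and 4. The 10 most abundant genes, small RNA entries aside, took 9.21% of the summed RPKM in mTEC and 9.86% in skinEC. In mTEC these were led by class II and class I genes, in skinEC by keratin genes.

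**Figure D2:**
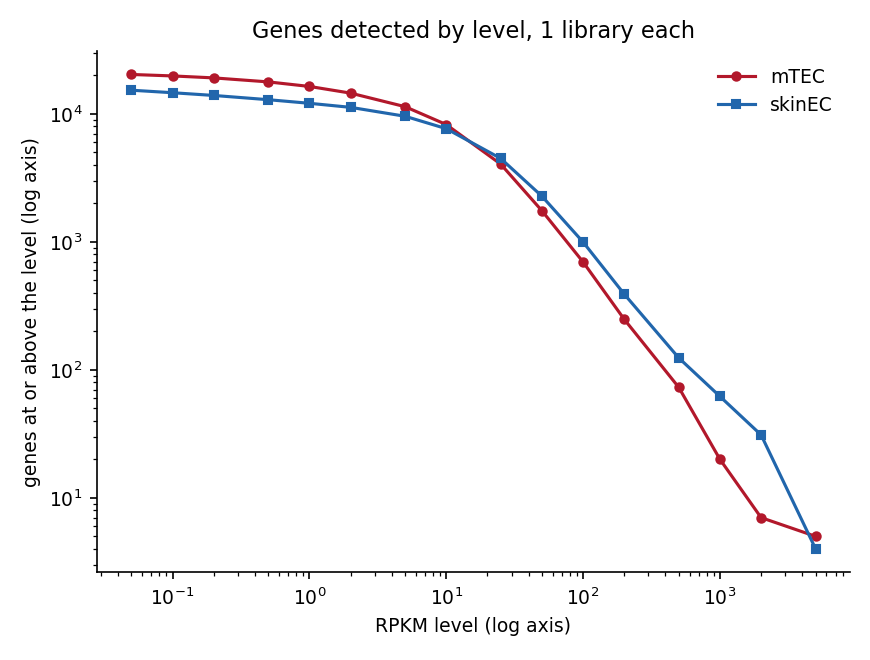
Number of genes (y axis, log) at or above each RPKM level (x axis, log) in mTEC (red) and skinEC (blue), 1 library each. The mTEC curve lies above at 1 RPKM (16375 against 12092) and below at 100 RPKM (696 against 996).

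Among single genes at 10 RPKM or more, the largest ratios toward mTEC belonged to Srgn (Entrez 19073), a proteoglycan gene of secretory granules, at 1864 against 0.515 RPKM (log2 ratio 10.27), and to Aire (Entrez 11634), at 1129 against 0.148 RPKM (9.94). The antimicrobial lectin gene Reg3g (1091 against 0.139 RPKM) and the milk casein gene Csn2 (1005 against 0.112 RPKM) followed, then Cd74, Fabp4, H2-Aa and Ubd, a ubiquitin-like gene induced by interferon (864 against 0.229 RPKM). Fabp4, a fatty acid binding protein gene of fat cells and macrophages, was at 747 RPKM in mTEC, with 0 listed in skinEC. Hdc, which makes histamine, was at 301 against 0.120 RPKM. Toward skinEC the largest were Krt15 (Entrez 16665), a basal keratin gene, at 30.5 against 4983 RPKM (-7.31), Stfa3 (Entrez 20863), a cystatin-like protease inhibitor gene, at 17.2 against 2555 RPKM (-7.13), and the galectin gene Lgals7 at 41.5 against 5661 RPKM (-7.06). Sostdc1, a secreted BMP and Wnt antagonist, was at 3.82 against 306 RPKM, and Apcdd1, a Wnt inhibitor of the skin, at 8.26 against 432 RPKM. The LIM-only gene Lmo1 (4.91 against 369.9 RPKM) and the POU factor gene Pou3f1 (0.904 against 88.5 RPKM) were also among the 15 largest. Stfa genes have near-identical copies, so the split of reads among them is uncertain.

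**Figure D3:**
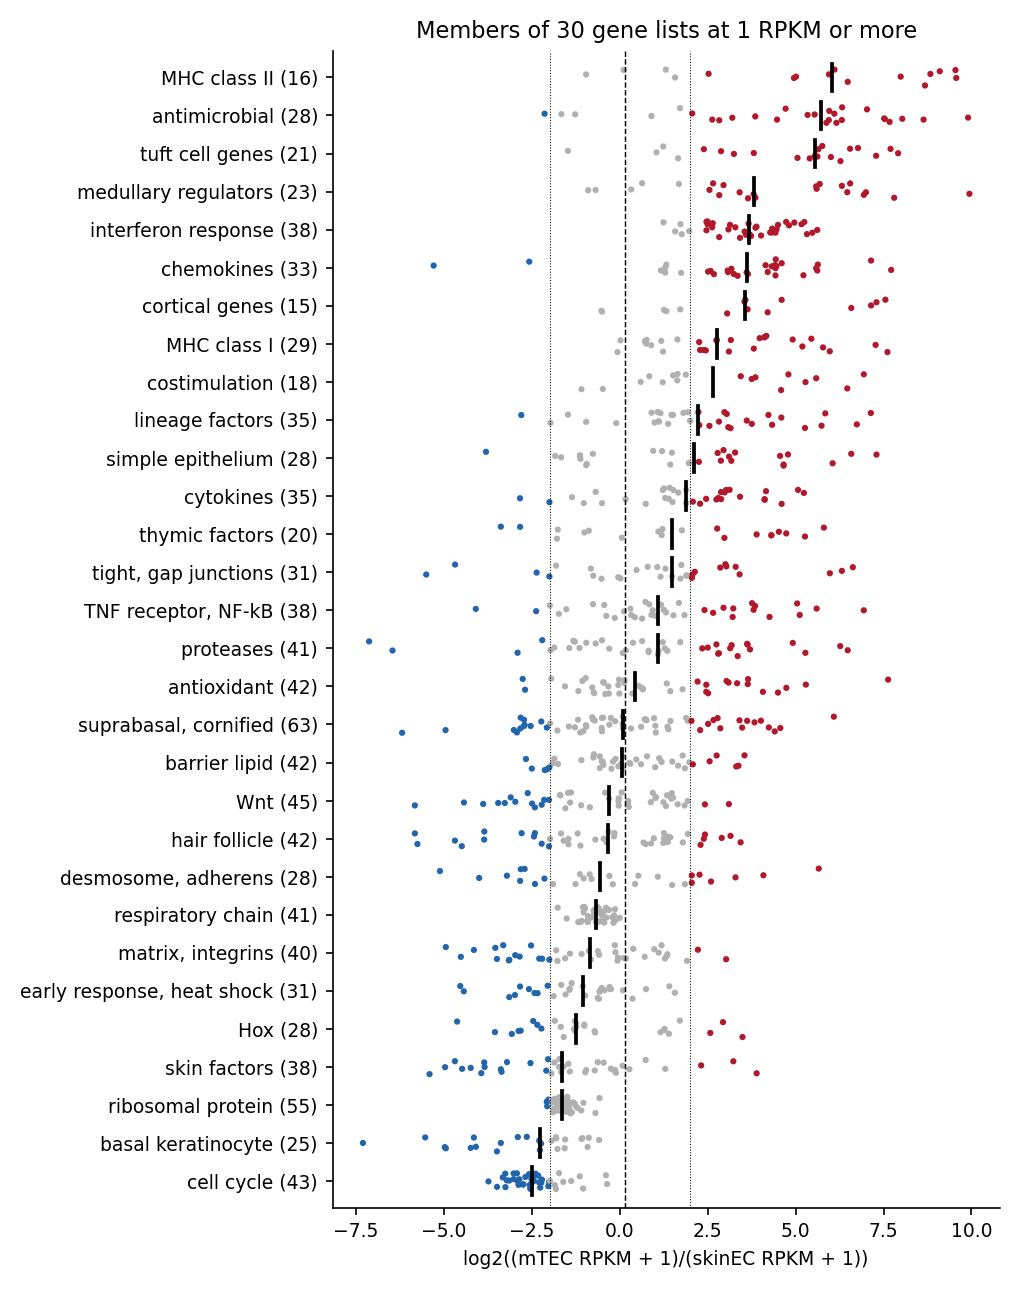
Log2 ratio of mTEC over skinEC (x axis) for each member at 1 RPKM or more of 30 gene lists (rows, number of members in brackets); each point is a gene, the black bar is the list median, the dashed line is the median of all genes (0.15) and the dotted lines are 4-fold. MHC class II lies farthest toward mTEC and the cell cycle farthest toward skinEC among the lists drawn.

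Antigen presentation by class II was the most displaced programme toward mTEC. Cd74 (Entrez 16149), the invariant chain gene that guards the class II groove, was at 14482 against 18.1 RPKM (9.57). The chain genes H2-Aa (5902 against 6.90 RPKM), H2-Ab1 (5271 against 11.9 RPKM) and H2-Eb1 (2531 against 3.61 RPKM) were next, and together with Cd74 they took 5.95% of the summed RPKM in mTEC and 0.00680% in skinEC. The peptide editors H2-DMb2 (600.3 against 0.319 RPKM), H2-DMb1 (188 against 1.74 RPKM) and H2-DMa (158 against 3.94 RPKM) and the modulator H2-Oa (257 against 0.0171 RPKM) were higher in mTEC too. So was Ciita, the coactivator that switches class II on, at 70.0 against 0.149 RPKM, and Ctss, the protease that trims the invariant chain, at 180.4 against 1.03 RPKM. Of 16 tabulated class II genes, 12 were higher in mTEC and 0 in skinEC, with a median of 6.03. The members within 2-fold were the RFX subunit genes Rfxank (12.3 against 11.3 RPKM) and Rfxap (6.41 against 13.4 RPKM), parts of the complex that binds the X box. In a bulk library fewer cells of a type and less RNA per cell cannot be told apart. Markers of myeloid and dendritic cells, which also carry class II, moved the same way, with a summed level of 936 against 11.1 RPKM over 23 genes. Lyz2 and Laptm5 made up most of that sum, Csf1r was at 10.1 against 1.08 RPKM and Itgax at 1.07 RPKM in mTEC, and their part in the class II difference was not tested.

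Class I presentation leaned the same way with a smaller distance. B2m, the light chain gene, was at 5682 against 129 RPKM and the heavy chain genes H2-K1 and H2-D1 were at 2458 against 38.2 RPKM and 1783 against 112 RPKM. The immunoproteasome subunit genes Psmb8 (139.9 against 7.16 RPKM), Psmb9 (129.7 against 3.33 RPKM) and Psmb10 (226 against 12.0 RPKM), the peptide transporter gene Tap2 (110.3 against 6.93 RPKM) and Nlrc5, the class I coactivator (28.6 against 2.32 RPKM), were higher in mTEC. The general chaperones of the pathway were less far apart, with Calr at 1115 against 492 RPKM and Canx at 140.3 against 147 RPKM. In all, 20 of 29 class I genes were higher in mTEC and 0 in skinEC (median 2.76). The H2-Q genes, such as H2-Q6 at 298 against 0.529 RPKM, share reads with near-identical copies and are uncertain.

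Costimulatory and checkpoint ligands separated into members near absent from skinEC and members shared by both. Icosl (171 against 0.945 RPKM), Cd40 (134 against 0.0963 RPKM), Cd80 (60.6 against 0.284 RPKM), Cd274, which encodes PD-L1 (42.2 against 0.556 RPKM), and Cd86 (14.1 against 0.0423 RPKM) were higher in mTEC. Cd70 was at 23 RPKM in mTEC, with 0 listed in skinEC. On the other side of 0 lay Lgals9, a galectin ligand of T cells (117 against 164 RPKM), and Cd276 (7.14 against 16.3 RPKM), both within 4-fold. Of 20 tabulated genes 18 reached 1 RPKM, 9 of them higher in mTEC and 0 in skinEC.

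The medullary programme was almost wholly on the mTEC side. Fezf2, a second regulator of tissue-restricted antigens, was at 231 against 0.0388 RPKM, and Spib, an Ets factor of mTEC, at 204 against 0.604 RPKM. Irf8 was at 111 against 0.190 RPKM. In cTEC, Fezf2, Spib and Irf8 were at 0.353, 3.97 and 107 RPKM, so Irf8 was near level in mTEC and cTEC. Tnfrsf11a, which encodes the receptor RANK that drives mTEC maturation, was at 54.8 against 0.153 RPKM, and Tnfrsf11b, its decoy osteoprotegerin, at 75.7 against 4.49 RPKM. Claudins used to mark mTEC were higher, 110.3 against 0.397 RPKM for Cldn3 and 192 against 17.2 RPKM for Cldn4. Of 24 tabulated genes, 23 reached 1 RPKM, 18 were higher in mTEC and 0 in skinEC, with a median of 3.80. The other 5 were within 4-fold. Chd4, a chromatin remodelling ATPase that acts with Fezf2 in mTEC, was at 82.8 against 155 RPKM (-0.90), Hipk2, a kinase, at 8.09 against 13.7 RPKM (-0.69), Ltbr, the lymphotoxin receptor gene, at 37.2 against 29.5 RPKM, Traf6, an adaptor gene of RANK and CD40, at 23.7 against 14.9 RPKM and Map3k14, the kinase gene of the non-canonical NF-kB arm, at 26.7 against 7.65 RPKM (1.68). Both libraries list 0 for Ccl21a, whose chemokine has close genomic copies.

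The TNF receptor and NF-kB list had members on both sides. The subunit genes Nfkb2 (271 against 34.2 RPKM) and Relb (127 against 19.3 RPKM) of the non-canonical arm were higher in mTEC, as were the inhibitor genes Nfkbie (76.5 against 1.35 RPKM) and Bcl3 (35.7 against 1.71 RPKM) and the survival gene Birc3 (110.1 against 6.72 RPKM). The canonical subunit genes Rela (39.0 against 51.3 RPKM) and Nfkb1 (69.5 against 51.5 RPKM) and the kinase genes Chuk (25.9 against 20.8 RPKM) and Ikbkb (51.4 against 26.3 RPKM) were within 2-fold. The inhibitor genes Nfkbia (534 against 214 RPKM, 1.32) and Nfkbiz (17.0 against 29.7 RPKM, -0.76) were within 4-fold, with their larger values on opposite sides. Higher in skinEC were Tnfrsf19, the TROY receptor gene of skin appendages, at 2.89 against 65.6 RPKM (-4.10), and Tnfrsf12a, the TWEAK receptor gene, at 12.1 against 67.1 RPKM. Edar, the ectodysplasin receptor gene of hair placodes, was at 3.86 against 18.3 RPKM, just short of 4-fold. Over 38 genes 13 were higher in mTEC and 2 in skinEC.

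Transcription factors of the thymic anlage did not move as a block. Pax1 (41.6 against 0.109 RPKM), Pax9 (26 against 0.0139 RPKM), Eya1 (39.0 against 0.740 RPKM) and Eya4 (19.4 against 0.0306 RPKM), which pattern the pharyngeal pouch that gives rise to the thymus, were higher in mTEC. Foxn1 acts in both tissues, in thymic epithelium and in hair-forming skin, and was at 69.5 against 3.75 RPKM (3.89), with 233 RPKM in the cortical thymic library. Trp63, which encodes p63, was on the skin side at 27.1 against 292 RPKM (-3.38), and so was Tbx1, another pharyngeal factor, at 3.08 against 28.2 RPKM (-2.84). Of the 20 genes 9 were higher in mTEC and 2 in skinEC.

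Genes known for the thymic cortex were also above their skin levels in mTEC, although mTEC is the other thymic epithelium. The chemokine gene Ccl25, which draws thymocyte precursors, was at 425 against 2.01 RPKM and at 1118 RPKM in cTEC. Tbata, a thymic stromal gene, was at 223 against 0.190 RPKM, Dll4, the Notch ligand that commits T cells, at 19.4 against 0.104 RPKM, and Il7, the thymocyte growth factor, at 24.4 against 0.0434 RPKM. The cortical protease gene Prss16 was at 25.2 against 1.11 RPKM, against 4132 RPKM in cTEC, and the thymoproteasome gene Psmb11 at 1.66 against 0.0632 RPKM, against 261 RPKM in cTEC. Of 15 genes 10 were higher in mTEC and 0 in skinEC. Enpep, the gene of the Ly51 gate, was among those higher in mTEC, and the part of cortical cells was not tested. Kitl, the stem cell factor gene, was at 5.69 against 8.50 RPKM, near level.

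Chemokines had members on both sides. Ccl5 was at 209 RPKM in mTEC, with 0 listed in skinEC, Ccl22, a ligand of CCR4, at 55.9 against 0.148 RPKM, Ccl20, a ligand of CCR6, at 95.2 against 3.47 RPKM, and the CXCR3 ligands Cxcl9 and Cxcl10 were at 93.9 against 0.937 RPKM and 356 against 16.9 RPKM. Cxcl13, which attracts B cells, was at 47.0 RPKM in mTEC, with 0 listed in skinEC. Against these, 2 chemokines of skin keratinocytes were higher in skinEC, Cxcl14 at 9.89 against 426 RPKM (-5.30) and Ccl27a, which guides T cells to the epidermis, at 16.9 against 106 RPKM (-2.58). Of 37 tabulated genes, 33 reached 1 RPKM, 25 were higher in mTEC and 2 in skinEC. Among cytokines, Ltb (39.8 against 0.0817 RPKM), Il23a (63.2 against 2.70 RPKM), Flt3l (34.4 against 3.06 RPKM) and Il15 (23.4 against 4.01 RPKM) were higher in mTEC, and Il12a was at 32.6 RPKM in mTEC, with 0 listed in skinEC. Il34, the keratinocyte ligand on which Langerhans cells depend, was at 4.05 against 35.1 RPKM (-2.84) and Tgfb3 at 11.9 against 50.5 RPKM (-2.0), both higher in skinEC. In that list 17 of 37 genes were higher in mTEC and 2 in skinEC.

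Interferon response genes were nearly all higher in mTEC. Usp18, a brake on the interferon receptor (123 against 1.8 RPKM), the factor gene Irf7 (119 against 3.53 RPKM), the antiviral gene Oasl2 (113 against 2.01 RPKM) and the ubiquitin-like gene Isg15 (102 against 5.97 RPKM) were examples. Of 38 genes 33 were higher in mTEC and 0 in skinEC (median 3.68). The factor genes Irf1 (80.4 against 23.6 RPKM), Irf2 (37.6 against 15.3 RPKM) and Irf9 (40.6 against 13.0 RPKM) were among the members short of 4-fold.

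Transcripts of secreted antimicrobial proteins were mostly higher in mTEC than in the surface epithelium. Besides Reg3g, the acute phase gene Saa3 (425 against 0.0674 RPKM), the lysozyme gene Lyz2 (283 against 0.0847 RPKM), the peptidoglycan recognition gene Pglyrp1 (209 against 0.131 RPKM) and the calprotectin genes S100a8 (300.4 against 2.79 RPKM) and S100a9 (167 against 1.10 RPKM) were higher in mTEC. Bpifa1, an airway surface protein gene, was at 207 against 0.0162 RPKM, with 363 RPKM in cTEC. Slpi was at 70.5 RPKM in mTEC, with 0 listed in skinEC. Defb1, the constitutive epithelial defensin gene, was the member higher in skinEC, at 9.39 against 44.8 RPKM (-2.14), with Pglyrp4 (6.02 against 21.2 RPKM) on the same side within 4-fold. Of 29 tabulated genes 23 were higher in mTEC and 1 in skinEC. Lyz1, Lyz2, S100a8 and S100a9 are genes of neutrophils and macrophages as well, and the part of such cells was not tested.

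On the skin side, the basal keratinocyte programme stood out. Krt5 was at 475 against 15010.4 RPKM (-4.98) and Krt14 at 229 against 10673 RPKM (-5.54). Col17a1, the transmembrane collagen of hemidesmosomes, was at 31.8 against 1011 RPKM (-4.95), Col7a1, which anchors the basement membrane to the dermis, at 9.36 against 183 RPKM, and the laminin 332 gene Lamb3 at 21.9 against 257 RPKM. The AP-2 factor gene Tcfap2a (4.30 against 99.3 RPKM) and Bcl11b (2.20 against 53.7 RPKM) were higher in skinEC as well. Of 25 genes 14 were higher in skinEC and 0 in mTEC, with a median of -2.27 against 0.15 for all genes. The integrin genes of the list were nearer, Itgb1 at 71.0 against 107 RPKM, Itga3 at 65.0 against 121 RPKM and Itga6 at 94.0 against 201 RPKM, all of them within 4-fold. None of the 25 genes had its larger value in mTEC on the deposited scale.

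Keratins made up 6.88% of the summed RPKM in skinEC and 0.988% in mTEC, over 51 genes. They fell into sets with opposite ratios. The epidermal and follicular keratins Krt15, Krt1 (25.6 against 1940.0 RPKM), Krt79 (34.2 against 1900.4 RPKM), Krt14, Krt5 and Krt10 (63.4 against 1998 RPKM) were far higher in skinEC. The simple epithelial keratins Krt18 (833 against 4.30 RPKM, 7.30), Krt8 (886 against 8.25 RPKM, 6.58) and Krt19 (142 against 1.15 RPKM, 6.05) were far higher in mTEC, as were Krt7 (198 against 19.5 RPKM) and Krt13, a keratin of mucosal epithelium (41.4 against 0.681 RPKM). Krt17 was abundant in both (1079 against 3436 RPKM). Krt78, a late differentiation keratin, was at 33.9 against 0.474 RPKM, and the hair and nail keratin gene Krt84 at 20.0 against 0.940 RPKM. Krt76 (28.1 against 0.108 RPKM) and Krt9 (39.8 against 1.90 RPKM), keratins of palate and of footpad, were chosen after their values were seen and were higher in mTEC.

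**Figure D4:**
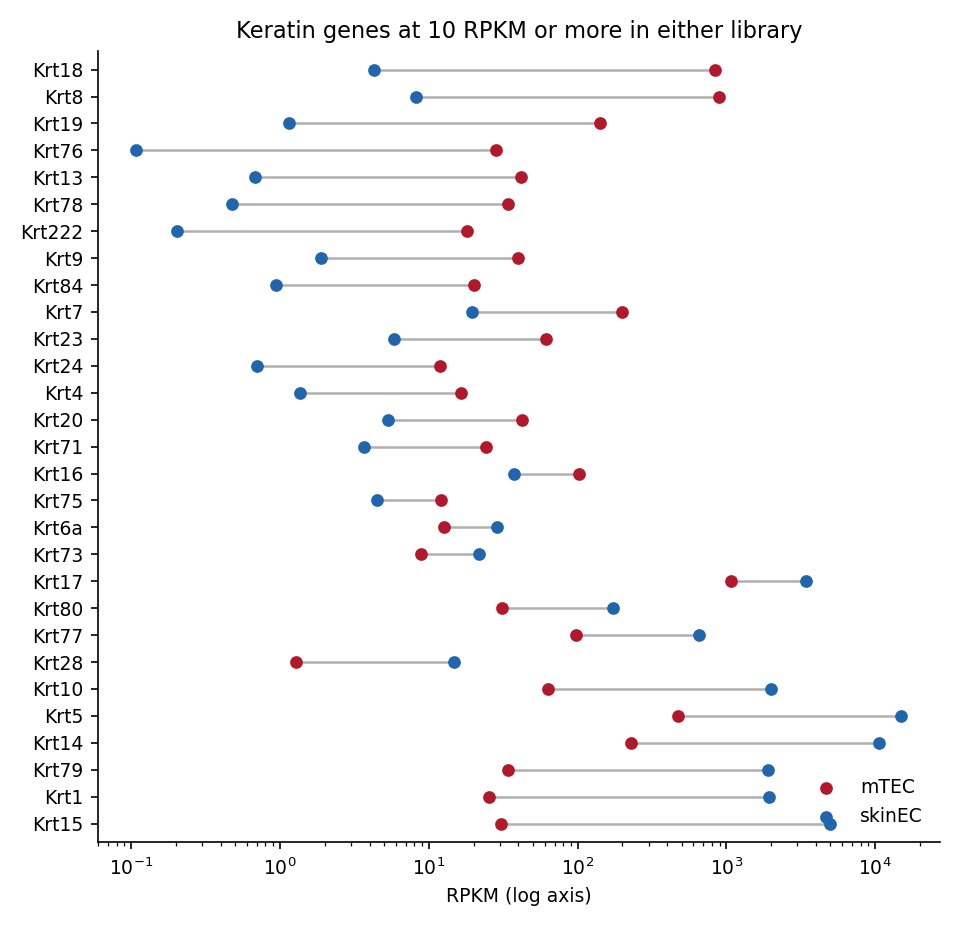
RPKM (x axis, log) of the 29 keratin genes at 10 RPKM or more in either library, in mTEC (red) and skinEC (blue), ordered by log2 ratio; a line joins the 2 values of a gene. Krt18 and Krt8 lead toward mTEC, Krt15 and Krt1 toward skinEC, and Krt17 is above 1000 RPKM in both.

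Later steps of epidermal differentiation did not follow the basal genes as a list, although some members did. The summed level of the suprabasal and cornified list was 2176 against 9252 RPKM. With 1 RPKM asked of both libraries, 6 members were higher in mTEC and 12 in skinEC, with a median of -0.51. Over 65 suprabasal and cornified genes, 63 reached 1 RPKM, 15 were higher in mTEC and 12 in skinEC, and the median was 0.08, which turned to -0.07 when ratios were centred on the median of all genes. Involucrin and loricrin, the classic envelope genes, were level, Ivl at 9.03 against 8.50 RPKM and Lor at 38 against 30.3 RPKM, and the differentiation regulators Grhl3 (20.3 against 22.4 RPKM), Zfp750 (42.0 against 50.4 RPKM) and Ovol1 (15.7 against 14.8 RPKM) were level too. Higher in mTEC were envelope and inhibitor genes of the epidermis and of stratified mucosa, among them Rptn, a repetin gene (98.4 against 0.462 RPKM, 6.09), Spink5, the inhibitor of epidermal kallikreins (46.2 against 2.83 RPKM), Serpinb12 (64.6 against 5.20 RPKM), Cnfn (41.3 against 5.16 RPKM) and Crnn, a cornulin gene of the oesophagus (15.9 against 0.0440 RPKM). Higher in skinEC were the suprabasal keratin genes Krt1 (25.6 against 1940.0 RPKM, -6.19), Krt10 (63.4 against 1998 RPKM, -4.96) and Krt77 (96.9 against 649.9 RPKM). So were the early suprabasal genes Krtdap (173 against 1150.1 RPKM), Ly6d (259 against 1510.0 RPKM) and Calm4 (31.8 against 249 RPKM). The envelope plakin gene Evpl (7.67 against 60.7 RPKM) and Casp14 (4.11 against 23 RPKM) were higher in skinEC too. The genes of barrier lipids, 43 tabulated and 42 compared, held 6 higher in mTEC and 5 in skinEC. Over all genes compared, 17.0% were higher in mTEC and 4.25% in skinEC. The 2 counts of each list were thus nearer to even than among all genes, but the medians, 0.08 and 0.06, gave no direction. With both libraries scaled to the same sum, suprabasal and cornified genes gave 17 higher in mTEC and 10 in skinEC. Barrier lipid genes then gave 9 and 2. Alox12e, an epidermal lipoxygenase gene, was at 506 against 50.1 RPKM, Alox12b at 16 against 0.641 RPKM and Dgat2 at 82.8 against 13.3 RPKM, while Abca12, the lipid transporter of lamellar granules, was at 1.69 against 16.1 RPKM, Acer1 at 1.60 against 13.8 RPKM and Elovl6 at 5.55 against 27.7 RPKM. Fabp5 was high in both (898 against 259.8 RPKM).

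Hair follicle genes had members on both sides. Krt71 (24.1 against 3.69 RPKM), Krt84 and Krt81 (9.90 against 0.463 RPKM), keratins of the hair shaft or its sheath, were higher in mTEC at modest levels, whereas Krt28, a keratin of the inner root sheath, was higher in skinEC (1.28 against 14.8 RPKM, -2.79) and Krt73, another, was at 8.90 against 21.7 RPKM (-1.20). The stem and progenitor genes Lgr6 (1.70 against 152 RPKM, -5.83), Lrig1 (22.2 against 334 RPKM), Lhx2 (1.58 against 57.3 RPKM), Barx2 (10.2 against 289 RPKM) and Gata3 (5.12 against 87.7 RPKM) were higher in skinEC, with Lgr5 at 0.754 against 8.36 RPKM. Sox9 was level (35.0 against 39.0 RPKM). Of 44 tabulated genes 42 were compared, with 6 higher in mTEC and 11 in skinEC, beside 17.0% and 4.25% of all genes compared. Cd34 (9.18 against 0.148 RPKM), a bulge marker that endothelium also carries, was among those higher in mTEC.

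Genes of cell contacts had a set on each side. Genes of tight junctions of simple epithelia were higher in mTEC, Cldn7 at 171 against 0.739 RPKM (6.63), Cldn13 at 63.9 against 0.0335 RPKM and the scaffold gene Tjp3 at 83.8 against 7.65 RPKM, and Cldn1, the claudin of the epidermal barrier, was higher in skinEC at 20.7 against 111 RPKM. The scaffold gene Tjp1, common to both, was level (23.9 against 24.7 RPKM). Of the connexin genes, Gja1 was at 45.2 against 184 RPKM and Gjb2 at 95.9 against 25.2 RPKM. Among desmosomal genes, Dsc3 (9.06 against 348 RPKM, -5.12), Dsg3 (3.82 against 76.2 RPKM), Pkp1 (68.6 against 644 RPKM) and Perp (129 against 919 RPKM) were higher in skinEC, and Dsc2 (58.0 against 5.03 RPKM) and Pkp2 (8.32 against 0.935 RPKM), the forms of simple epithelia, in mTEC. Cdh17, an intestinal cadherin gene, was at 51.0 against 0.0310 RPKM, against 209 against 459.9 RPKM for Cdh1, the common epithelial cadherin. Of 34 tabulated junction genes 31 were compared, 11 higher in mTEC and 4 in skinEC. Of 29 desmosome and adherens genes 28 were compared, with 7 and 8. Over all genes compared the shares were 17.0% and 4.25%.

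Matrix and integrin genes leaned to skin. Beside Col17a1, Col7a1 and Lamb3, the Fraser complex gene Frem2 (1.57 against 58.0 RPKM), the basement membrane genes Lamc1 (9.23 against 90.1 RPKM), Hspg2, which encodes perlecan (15.7 against 129.9 RPKM), and Col4a5 (3.79 against 46.7 RPKM) and the integrin gene Itgb5 (6.06 against 61.3 RPKM) were higher in skinEC. Col4a1 (87.5 against 80.8 RPKM) and Col4a2 (48.8 against 53.4 RPKM), the common type IV chains, were level. Nid2 (17.9 against 1.32 RPKM) and Itga9 (3.72 against 0.0118 RPKM) were higher in mTEC. The list of 40 genes held 14 higher in skinEC and 2 in mTEC. Postn, a periostin gene counted here as a fibroblast marker, was at 6.13 against 342 RPKM (-5.59) and Fbln1 at 9.40 against 94.5 RPKM, while the fibroblast collagen genes Col1a1 (34.5 against 1.07 RPKM) and Col3a1 (6.07 against 0.0129 RPKM) went toward mTEC. Pdgfra was at 0.639 against 0.0778 RPKM and Dcn at 47.4 against 27.7 RPKM, and the part of fibroblasts was not tested.

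Patterning genes of the body surface separated the tissues. The Iroquois genes Irx2 (2.80 against 161 RPKM, -5.41), Irx4 (3.99 against 155 RPKM) and Irx1 (3.49 against 63.5 RPKM) were higher in skinEC, and they stand next to each other in the genome. Ahr, the aryl hydrocarbon receptor gene, was at 1.91 against 64.1 RPKM, Hr, the hairless corepressor, at 7.34 against 127 RPKM, and Klf5 at 23.7 against 104 RPKM. Tbx15 (8.61 against 0.0251 RPKM) and Dlx5 (6.64 against 0.538 RPKM) went toward mTEC. Of 43 tabulated factors of skin, 14 were higher in skinEC and 3 in mTEC. Hox genes, which mark position along the body, were found on both sides. Hoxa7 (0.185 against 28.3 RPKM, -4.63), Hoxa5 (0.442 against 15.9 RPKM), Hoxb2 (1.62 against 21.0 RPKM), Hoxb7 (1.56 against 17.9 RPKM) and Hoxc8 (1.45 against 11.5 RPKM) were higher in skinEC, and Hoxd4 (8.03 against 0.518 RPKM) in mTEC. Hoxb13 was at 10.2 RPKM in mTEC, with 0 listed in skinEC, and Hoxc11 at 6.64 RPKM in mTEC, with 0 listed in skinEC. Of 39 Hox genes 28 were compared, with 8 higher in skinEC and 3 in mTEC, beside 4.25% and 17.0% of all genes compared.

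Signalling pathways were mixed, and the medians of the Wnt (-0.30), BMP (-0.19) and Notch (-0.27) lists turned positive when both libraries were scaled to the same sum, so no direction is given for them as lists. Within Wnt, the ligand genes Wnt16 (0.227 against 25.5 RPKM), Wnt7b (4.84 against 63.2 RPKM), Wnt3 (2.42 against 32.1 RPKM) and Wnt4 (17.9 against 147 RPKM), the receptor gene Fzd10 (6.49 against 109.7 RPKM) and the target gene Axin2 (4.74 against 31.4 RPKM) were higher in skinEC. Dkk2, a secreted inhibitor, was higher in mTEC (7.67 against 0.00966 RPKM), and the coreceptor gene Lrp6 was level (19.0 against 19.5 RPKM). In all 13 of 46 Wnt genes were higher in skinEC and 2 in mTEC. Among BMP and activin genes, the antagonist Fst was higher in skinEC (7.87 against 268 RPKM, -4.92), the antagonist genes Grem1 (14.4 against 0.360 RPKM) and Bmp3 (26.9 against 1.05 RPKM) in mTEC, and Smad4, the shared transducer, was level (60.1 against 59.5 RPKM). Of the 41 genes of that list 39 were compared, with 5 higher in mTEC and 4 in skinEC, beside 17.0% and 4.25% of all genes compared. Among Notch genes, Notch1 (23.5 against 108 RPKM), its ligand gene Jag2 (30.8 against 236 RPKM) and its target gene Hes1 (17.1 against 108 RPKM) were higher in skinEC, whereas Hes6 (110.2 against 10.4 RPKM), Mfng (22.7 against 0.371 RPKM) and Dll4 were higher in mTEC, in a list of 24 genes with 6 higher in mTEC and 4 in skinEC. Of the growth factor list, the FGF receptor genes Fgfr1 (2.35 against 59.0 RPKM), Fgfr2 (14.5 against 115 RPKM) and Fgfr3 (9.43 against 63.2 RPKM) were higher in skinEC. Fgf21, a hormone of the liver, was higher in mTEC (225 against 0.227 RPKM, 7.52), with Nrg1 (19.7 against 0.0851 RPKM) and Areg (12.3 against 0.552 RPKM). That list of 43 genes held 3 higher in mTEC and 6 in skinEC.

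Proteases and inhibitors also had a side each. Ctsh (316 against 43.9 RPKM), Ctsz (310.3 against 34.3 RPKM) and Napsa (43.0 against 0.133 RPKM), proteases of the endosomal route, were higher in mTEC, as was Klk1 (77.6 against 0.0204 RPKM). Ctsb (63.8 against 174 RPKM) and Ctsd (137 against 304 RPKM) went the other way within 4-fold. Higher in skinEC were the stefin genes Stfa3 and Stfa1 (3.45 against 392 RPKM) and Klk10 (12.8 against 62.7 RPKM). Over 41 genes 15 were higher in mTEC and 4 in skinEC. Antioxidant and detoxifying genes gave 14 of 42 higher in mTEC and 2 in skinEC, beside 17.0% and 4.25% of all genes compared. Higher in mTEC were the secreted peroxidase gene Gpx3 (278 against 0.409 RPKM, 7.63) and Gsta4 (72.6 against 2.26 RPKM), among others. Gstm2 (15.1 against 108 RPKM) and Aldh3a1 (22 against 148 RPKM) were higher in skinEC, and the regulator Nfe2l2 (27.9 against 25.4 RPKM), Sod2 (21.6 against 22.3 RPKM) and Mt2 (270.4 against 273 RPKM) were level.

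Simple epithelial genes other than keratins followed the thymus. Muc1 (48.6 against 0.801 RPKM), Elf3, an Ets factor (93.2 against 3.0 RPKM), and Vil1, the villin gene of brush borders (25.2 against 0.0402 RPKM), were higher in mTEC. Lgals3 was the one member higher in skinEC (16.4 against 242 RPKM, -3.81). Esrp1 (75.6 against 129 RPKM) and Esrp2 (54.0 against 105 RPKM), the epithelial splicing regulators, were within 2-fold.

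Genes of tuft cells, chemosensory cells of mucosal epithelia, were among the lists farthest toward mTEC, with 17 of 21 higher and a median of 5.54. The taste transduction genes Gnat3 (248 against 0.0305 RPKM), Gnb3 (211 against 0.0194 RPKM), Trpm5 (159 against 0.0204 RPKM) and Plcb2 (118.4 against 0.0905 RPKM) were near absent from skinEC. Avil was at 287 against 3.48 RPKM, Alox5ap, of leukotriene synthesis, at 211 against 3.31 RPKM, and Dclk1 at 36 against 0.116 RPKM. Pou2f3, the POU factor that tuft cells require and that keratinocytes of the epidermis also express, was the one member with its larger value in skinEC, at 64.7 against 182 RPKM (-1.48).

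Factors that direct other lineages were present in mTEC at moderate levels. Cdx1, of the intestine, was at 149 against 0.0614 RPKM, Foxj1, of ciliated cells, at 38.3 against 0.0208 RPKM, and Insm1 at 55.0 against 1.32 RPKM. Myog, of muscle, was at 56.4 RPKM in mTEC, with 0 listed in skinEC. Of 42 such factors tabulated, 34 reached 1 RPKM in mTEC and 8 in skinEC, and 20 are listed at 0 in skinEC. Of all 22609 symbols, 16375 reached 1 RPKM in mTEC and 12092 in skinEC. Trp73, a relative of p63 that also serves ciliated cells, was the member higher in skinEC, at 3.85 against 32.8 RPKM (-2.80), and Rfx2 (6.12 against 26.9 RPKM) lay just short of 4-fold. When only genes at 1 RPKM or more in both libraries were kept, the median of this list went from 2.24 to -0.96.

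Genes restricted to other organs were higher in mTEC wherever they passed 4-fold. Over 10 lists and 268 genes, 215 reached 1 RPKM in mTEC and 28 in skinEC, 107 and 5 reached 10 RPKM, and 2 and 132 are listed at 0. Of all 22609 symbols, 16375 reached 1 RPKM in mTEC and 12092 in skinEC, and 8251 and 7662 reached 10 RPKM. The lists thus stood apart from all genes mainly by their few members in skinEC. Higher in mTEC were 147 of 215 compared and in skinEC 0, beside 17.0% and 4.25% of all genes compared. All 215 reached 1 RPKM in mTEC. Those below 1 RPKM in skinEC met the filter through mTEC alone, so their direction was fixed by it. With 1 RPKM asked of both libraries the median of these genes went from 2.89 to 1.55. From liver, Apoa4 was at 76.2 against 0.0107 RPKM, Hp, the haptoglobin gene, at 40.0 against 0.0799 RPKM, and Trf, the transferrin gene, at 68.9 against 2.43 RPKM. From pancreas, the inhibitor gene Spink3 was at 140.3 RPKM in mTEC, with 0 listed in skinEC, and the hormone genes Iapp at 124 RPKM in mTEC, with 0 listed in skinEC, and Ppy at 43.3 RPKM in mTEC, with 0 listed in skinEC. Gut genes reached the highest single value in Reg3g, followed by the factor gene Cdx1 (149 against 0.0614 RPKM), Fabp6 (129 against 0.648 RPKM) and Tff3 (122 RPKM in mTEC, with 0 listed in skinEC). From lung, Scgb1a1 was at 93.6 RPKM in mTEC, with 0 listed in skinEC, and Sftpd at 29.2 RPKM in mTEC, with 0 listed in skinEC. From muscle, Actn3, of fast fibres, was at 199 against 0.420 RPKM and Myl1, a myosin light chain gene, at 21.3 RPKM in mTEC, with 0 listed in skinEC. From brain, the neuropeptide genes Calcb (332 against 0.316 RPKM), Calca (117 against 0.0861 RPKM) and Nts (110.3 against 0.0607 RPKM) had the highest levels in mTEC, followed by Syt1, a synaptic vesicle gene (87.8 against 0.351 RPKM), and the neuropeptide gene Npy (65.3 against 0.131 RPKM). Endocrine genes were led by Pomc (89.0 against 0.0356 RPKM), and Pth, of the parathyroid, was at 28.1 RPKM in mTEC, with 0 listed in skinEC. Mammary and salivary genes followed Csn2 with Lpo (87.2 against 0.159 RPKM) and Csn1s2a, at 41.8 RPKM in mTEC, with 0 listed in skinEC. The lens gene Cryaa was at 23.1 RPKM in mTEC, with 0 listed in skinEC. Testis genes were the scarcest, with 14 of 31 at 1 RPKM or more in mTEC and 5 in skinEC, and Tex14 at 10.4 against 0.0563 RPKM.

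**Figure D5:**
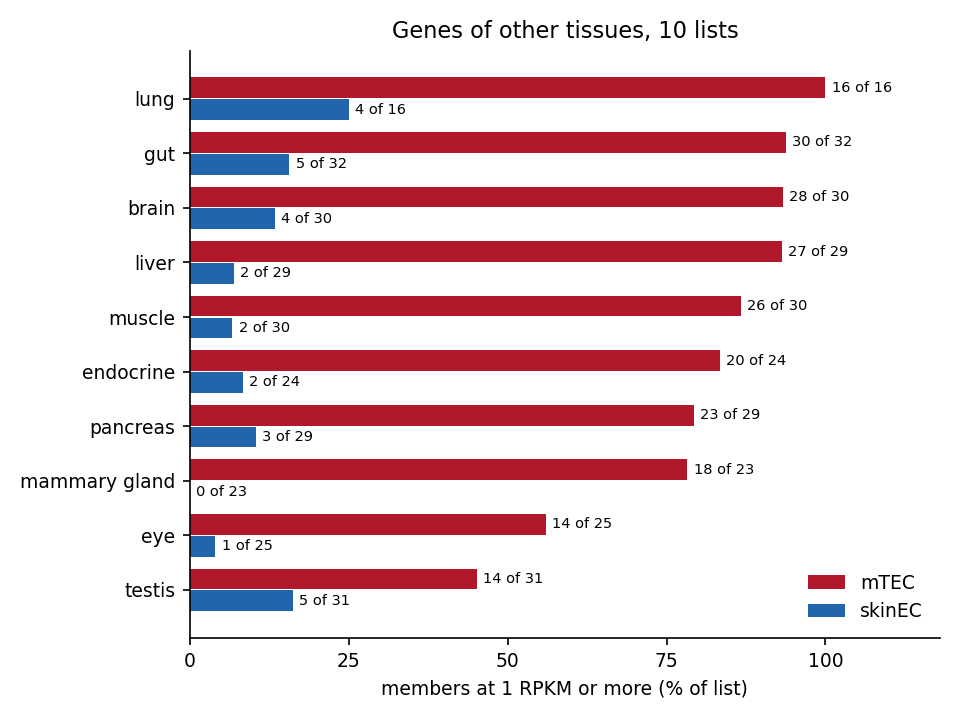
Share of the members of 10 lists of genes of other tissues (rows) at 1 RPKM or more (x axis, percent of the list) in mTEC (red) and skinEC (blue), with counts beside the bars. The mTEC share is the larger in each of the 10 lists, from 14 of 31 testis genes to 16 of 16 lung genes, and no skinEC bar passes 5 genes. Of all 22609 symbols, 16375 reach 1 RPKM in mTEC and 12092 in skinEC.

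The skin library was not empty of such genes. Members at 10 RPKM or more in skinEC were Odf2 (28.0 against 46.2 RPKM), a gene of sperm tails and centrosomes, Penk, which encodes enkephalin (30.3 against 42.8 RPKM), Cryab, a small heat shock protein (36.6 against 17.0 RPKM), the club cell gene Cyp2f2 (34.1 against 12.0 RPKM) and the surfactant gene Sftpc (8.66 against 10.9 RPKM). Odf2, Penk and Sftpc had their larger value in skinEC, and so did Cyp17a1 (6.08 against 8.88 RPKM), Tff1 (3.28 against 4.61 RPKM), Guca2a (2.80 against 3.23 RPKM) and Sycp3 (1.17 against 1.39 RPKM), all within 2-fold.

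Genes higher in mTEC lay beside each other in the genome in many places, which is described here with no test. By their order in the RefSeq annotation, 1283 of 2788 genes higher in mTEC (46.0%) had a neighbour that was also higher, against 22.2% of the 13386 compared genes that were not higher in mTEC. For skinEC the shares were 14.4% (97 of 675) and 6.51%. On both sides the share was thus larger for the genes that were higher than for those that were not. Of 21713 ordered genes, 2788 were higher in mTEC and 675 in skinEC, and runs form more readily where more genes are higher. Counts of runs therefore do not compare clustering between the sides. Runs of 4 or more neighbours numbered 58 toward mTEC and 1 toward skinEC. The longest were 14 kallikrein genes from Klk1b8 to Klk1, 12 genes of the class II region from H2-DMa to H2-Eb2, which includes Tap1 and Psmb8, and 9 genes of which 8 are Skint genes. A run of 8 held the albumin and alpha-fetoprotein genes Alb and Afp and the chemokine genes Cxcl5, Ppbp, Pf4 and Cxcl3, and a run of 6 held the caseins Csn1s1, Csn2, Csn1s2a and Csn1s2b. The run toward skinEC was that of Irx1, Irx2 and Irx4 with a gene model between them. Kallikrein and Skint copies are nearly identical and may share reads.

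The cell cycle was the list farthest toward skinEC. Of 43 genes 33 were higher in skinEC and 0 in mTEC, with a median of -2.51. Both arms took part. Of replication, the helicase genes Mcm5 (11.5 against 139 RPKM, -3.49) and Mcm2 (9.14 against 101 RPKM) and the sliding clamp gene Pcna (43.6 against 213 RPKM) were higher in skinEC, and of mitosis Ube2c (9.33 against 137 RPKM, -3.74), Top2a (15.7 against 159 RPKM), Ccnb1 (3.63 against 43.1 RPKM), Aurkb (4.78 against 52.7 RPKM) and Cdc20 (18.5 against 143 RPKM). Ccnb2 (14.9 against 82.9 RPKM) and Plk1 (9.18 against 49.8 RPKM), whose promoters are shown above with that of Cdc20, were chosen for printing after their values were seen. Mki67, the common proliferation marker, differed less, at 12.9 against 35.3 RPKM (-1.38), and Cenpe (5.17 against 6.93 RPKM) and E2f2 (10.4 against 13.9 RPKM) were within 2-fold. None of the 43 had its larger value in mTEC on the deposited scale.

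Ribosomal protein genes were shifted together. All 55 had their larger value in skinEC, from -2.08 to -0.58, with a median of -1.64, and 4 were past 4-fold, a count that was 0 when both libraries were scaled to the same sum and 9 when ratios were centred on the median of all genes. Rpl8 was at 665 against 2683 RPKM. Many of these genes have processed copies elsewhere in the genome, and levels ran from 3.30 RPKM for Rps6 to 822 RPKM for Rpl13a in mTEC, so the level of a single gene is uncertain while the ratio was similar across the list. Respiratory chain genes showed a smaller distance in the same direction, with 33 of 41 within 2-fold, 0 past 4-fold and a median of -0.66. Immediate early and heat shock genes, which also respond to the way cells are freed from tissue, included 9 of 31 higher in skinEC and 0 in mTEC. Among them were Atf3 (7.16 against 189 RPKM, -4.54), Egr2 (4.74 against 123 RPKM), Jun (80.3 against 580.5 RPKM) and Fos (68.0 against 413 RPKM), while Hspa8 (295 against 399 RPKM) and Hsph1 (28.3 against 26.5 RPKM) were within 2-fold and Hspa5, a chaperone of the endoplasmic reticulum, was at 753 against 283 RPKM. Their part in the other differences was not tested.

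The lists of markers of other cell types had medians on the mTEC side, from 0.88 for melanocytes and Schwann cells to 3.02 for myeloid cells. Over all genes compared, 17.0% were higher in mTEC and 4.25% in skinEC. Of the myeloid markers 15 of 23 were higher in mTEC and 0 in skinEC. B cell markers numbered 5 of 12, with a summed level of 70.3 against 0.598 RPKM, of which Cd79b had 35.7 RPKM in mTEC. Thymocyte markers summed to 121 against 114 RPKM, and 1 of 22, Bcl11b, was higher in skinEC and 3 were higher in mTEC, Cd4 at 8.13 against 0.0174 RPKM, Cd3g and Thy1, and the recombinase gene Rag1 was at 1.38 RPKM in mTEC, with 0 listed in skinEC. Endothelial markers summed to 76.4 against 6.18 RPKM, with Plvap at 17.8 against 0.107 RPKM, and muscle and pericyte markers to 254 against 114 RPKM, with Rgs5 at 114 against 0.00990 RPKM and Mcam at 4.90 against 77.7 RPKM. Red cell markers summed to 98.0 against 11.3 RPKM, fibroblast markers to 405 against 519.5 RPKM and melanocyte and Schwann cell markers to 105 against 76.8 RPKM. Of the defining markers, Cd3e, Rag1, Ms4a1, Cdh5 and Hbb-b1 are listed at 0 in skinEC, and none of them is listed at 0 in mTEC. The Merkel cell list had Atoh1 at 0.888 against 1.03 RPKM and Krt20 at 42.3 against 5.30 RPKM. Of 6 Langerhans and skin T cell markers 4 were higher in mTEC and 0 in skinEC, with the Langerhans cell marker Cd207 at 6.09 against 0.433 RPKM. The melanocyte marker Dct was at 0.908 against 2.18 RPKM. mTEC are known to transcribe genes of such cells, and the part of contaminating cells in these values was not tested.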

How the data were processed

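RNA was sequenced in 3 libraries, of which mTEC and skinEC were compared and cTEC is quoted for single genes. The deposited values are RPKM per gene, made by the authors, per the file headers. CASAVA 1.8.2 and mm9 appear, with no role, in the submitters' processing notes. The sources used here do not give the aligner, annotation or strand setting, and overlapping genes and genes with close copies are uncertain. Where a symbol had several rows (47 symbols) the largest-sum row was used, and 11 symbols turned into dates stay unnamed. Small RNA entries (414 of those compared) may hold reads of host genes too. A value of exactly 0 may be a failed estimate, as Hmgcs1, a gene of sterol synthesis, is also at 0, so such genes are only said to be listed at 0.

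Ratios used a pseudocount of 1 RPKM, a filter of 1 RPKM in either library and a threshold of 4-fold, in Python 3.11.15 with pandas 2.3.3. With 1 library a side no test was made. Depth came from the spacing of low RPKM values, with transcript lengths from a later annotation; values were whole reads within 0.01 reads for 313 of 460 low genes in mTEC and 209 of 406 in skinEC. The search was tested on simulated data. Reads are not independent molecules.

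The members and the 54 gene lists were chosen with earlier results of these data known, and counts over them support nothing beyond their values. Genes are named as the 15 largest ratios a side at 10 RPKM or more, the 15 most abundant of each library, the regulators and sorting genes, and in each list the 8 largest a side, the 4 most abundant, up to 4 within 2-fold and those against the list's direction. Outside that rule, these were named for their known roles after their values were seen: Axin2, Ccl20, Ccnb2, Cenpe, Ciita, Cnfn, Csf1r, Ctsz, Cyp2f2, Dclk1, Gjb2, H2-DMa, Hspg2, Ikbkb, Il15, Irf1, Irf2, Irf9, Isg15, Itga6, Ivl, Klf5, Krt73, Lgr5, Lor, Mki67, Nfe2l2, Nlrc5, Pdgfra, Plk1, Psmb10, Psmb11, Psmb8, Rag1, Rps6, Serpinb12, Slpi and Tap2. Not every gene the rule covers is reported here. Alternatives were other pseudocounts, filters, scalings, folds, entries and rows.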

Additional observations from a re-analysis of the deposited data

How the results depend on the processing

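No paired analysis was possible because each population gave 1 library. Age, sort and tissue cannot be told apart. Against 2834 genes higher in mTEC and 708 in skinEC, a pseudocount of 0.1 RPKM gave 4963 and 938, a pseudocount of 5 RPKM gave 1020 and 373, a threshold of 2-fold gave 5736 and 2812, a threshold of 8-fold gave 1464 and 194, and 1 RPKM asked of both libraries gave 603 and 640. The other filters, the scalings and the choice of entries and rows kept both counts within 1.5 times. The share of genes apart that were higher in mTEC was 86.6% on the same sum and 74.7% with ratios centred, against 80.0%. Of 729 named genes no ratio past 4-fold changed sign under these settings, while 164 values came under 4-fold and 79 went past it. For 25 of 55 list medians (the 54 lists and the tissue-restricted genes together) the side of 4-fold held under every setting. The cause of the changes was not tested. With a pseudocount of 5 RPKM the medians that came under 2 were 1.83 for cortical genes, 1.76 for costimulation, 1.72 for chemokines, 1.60 for simple epithelium, 0.80 for lineage factors, 1.58 for liver genes, 1.14 for lung genes, 1.27 for muscle genes, 1.45 for brain genes, 0.81 for endocrine genes, 1.68 for mammary gland genes, 0.85 for eye genes, 1.44 for myeloid markers, 1.2 for Langerhans and skin T cell markers, 1.5 for fibroblast markers, 0.81 for endothelial markers, 1.53 for muscle and pericyte markers, 1.60 for Merkel cell markers, 1.07 for red cell markers, 1.58 for sorting genes and 1.34 for all tissue-restricted genes. With no filter on low values they were 1.76 for costimulation, 1.66 for lineage factors, 1.81 for endocrine genes, 1.05 for eye genes, 1.98 for fibroblast markers and 1.79 for endothelial markers. With 1 RPKM asked of both libraries they were 0.59 for costimulation, 1.30 for chemokines, 1.31 for antimicrobial genes, 1.46 for simple epithelium, -0.96 for lineage factors, 1.45 for tuft cell genes, 0.93 for lung genes, 1.60 for muscle genes, 1.90 for brain genes, 0.37 for endocrine genes, 1.06 for eye genes, 0.75 for fibroblast markers, -0.15 for endothelial markers, -2.04 for muscle and pericyte markers, 1.76 for red cell markers and 1.55 for all tissue-restricted genes. With ratios centred on the median of all genes they were 1.96 for simple epithelium, 1.97 for endocrine genes and 1.94 for eye genes. Without the member with the largest ratio they were 1.88 for costimulation, 1.96 for simple epithelium and 1.97 for eye genes. Medians that rose past 2 were, with a pseudocount of 0.1 RPKM, 3.17 for thymic factors, 3.05 for cytokines, 2.26 for junctions, 3.35 for testis genes, 3.24 for thymocyte markers and 4.66 for B cell markers. With a filter of 5 RPKM in either library they were 2.77 for thymic factors, 2.77 for cytokines, 2.72 for testis genes and 2.84 for B cell markers. With each library scaled to the same sum they were 2.12 for cytokines and 2.06 for B cell markers. Scaled to the same sum with the top 50 genes of either library left out, they were 2.07 for cytokines and 2.04 for B cell markers. The median of basal keratinocyte genes was -1.95 with each library scaled to the same sum, short of 4-fold toward skinEC. Of the medians with 1 RPKM asked of both libraries, those of lineage factors, endothelial markers and muscle and pericyte markers changed sign.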
